A study of Mus musculus with 6 samples.

Results

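The genes described here are the 7 of the endothelin system: the ligand genes Edn1, Edn2 and Edn3, the receptor genes Ednra and Ednrb, and the converting enzyme genes Ece1 and Ece2. They were taken by symbol from tables of 28043 genes, and all 7 were found. They were measured in polyadenylated RNA of primary retinal pigment epithelium (RPE) cells from mice, in 3 libraries from normal animals (Normal) and 3 from animals with proliferative vitreoretinopathy (PVR), a scarring disease of the retina that the series title calls traumatic. The labels give no strain, age, way of inducing PVR, time after injury, culture step or number of animals behind a library. Nothing says that replicates were separate animals, so any error given covers only the spread between these libraries. The genes were chosen by name, but with the fold changes of the Normal and PVR comparison in view, so their differences are a description and are not read as evidence.

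Endothelins are short peptides cut from long precursors: a furin-type convertase releases an inactive big endothelin, and an endothelin-converting enzyme trims that to the active peptide. The peptides act on a pair of G protein-coupled receptors. The A receptor, encoded by Ednra, prefers endothelin-1 and endothelin-2, contracts smooth muscle and drives fibroblast matrix production, whereas the B receptor, encoded by Ednrb, binds all 3 peptides about equally and also clears endothelin-1. In the eye, endothelin-3 and the B receptor are known from the neural crest cells that become choroidal melanocytes, and endothelin-2 is known as a signal that injured photoreceptors send to Müller glia.

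The total over genes ranged from 15269983 to 19173187 reads. Values are normalised counts, that is reads divided by a size factor of the library, so that 1 read was worth 0.906 to 1.14 normalised counts. Changes are differences of log2(normalised count + 1), with Normal subtracted from PVR, estimated with limma over the 15766 genes that passed a filter on low counts, with their standard error (SE). A gene was called when its Benjamini-Hochberg adjusted p over all those genes was under 0.05. The RPE markers Rgr, Ttr and Rlbp1 were the most abundant of 12 RPE markers, which summed to 810485 to 875149 normalised counts in Normal and 579077 to 631550 in PVR, with 6 called lower. Of the 7 endothelin genes 6 passed the filter, and Ece2 did not. Edn1 and Edn2 passed only through the PVR libraries, since 1 of 3 Normal libraries each was past the limit. Ednrb, Ednra and Ece1 were called, all 3 higher in PVR, and 0 genes were called lower (0 also at an unadjusted p under 0.05, and 0 by edgeR, DESeq2 and limma-voom). Over all genes tested 17.9% were called higher and 12.9% lower, and nothing is read from the count of 3. The 3 PVR values lay above the 3 Normal values for 5 of the 6, all but Edn1, which holds for 24.7% of all genes tested, while 0 of the 6 had all PVR values below all Normal values, against 23.3%. Edn2, 1 of the 5, passed the filter only through PVR, and nothing is read from these counts either.

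**Figure D1:**
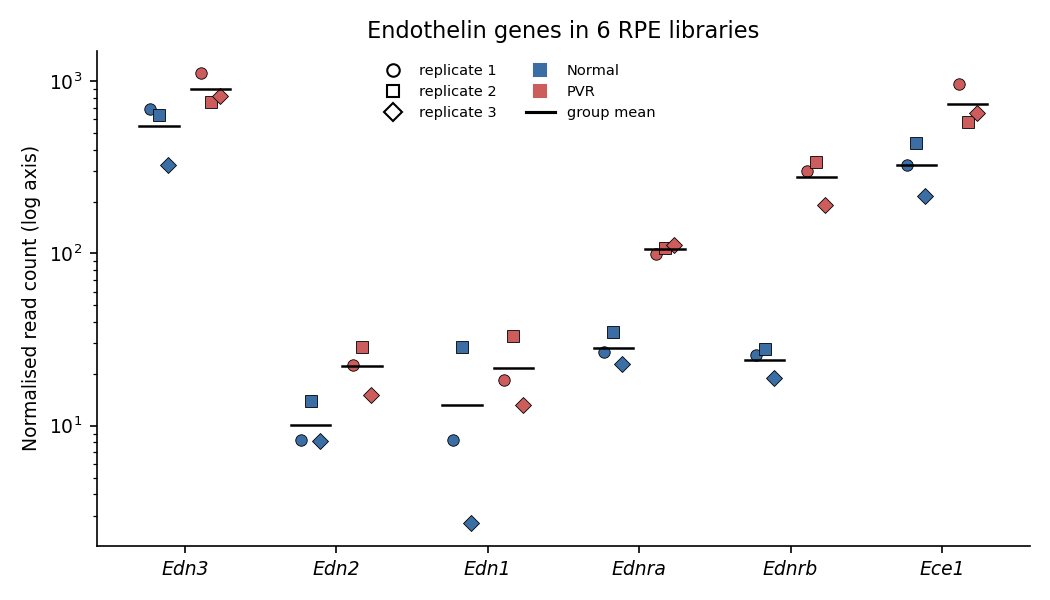
Normalised read counts (log axis) of the 6 endothelin genes that passed the filter, with 1 point per library (blue Normal, red PVR, the shape giving the replicate number) and a black bar at the group mean. Ednrb was at 19.0 to 27.8 in Normal and 192 to 338 in PVR, while the groups of Edn1 overlapped.

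Among the ligands, Edn3, which encodes endothelin-3 (ENSMUSG00000027524.9, chromosome 2, 174760619 to 174784042 on GRCm38), was by far the most abundant. In order of replicate number, its normalised counts were 692, 635 and 324 for the Normal libraries and 1110, 756 and 821 for the PVR libraries. The highest Normal and the lowest PVR library were close, at a ratio of 1.09, and Normal replicate 3 stood below the other 2. The means were 550.4 ± 198 in Normal and 896 ± 188 in PVR (SD, n = 3), a log2 change of 0.76 (SE 0.31) that was not called. With replicate numbers as a block the same change had an SE of 0.20 and was called, as it was by DESeq2. Without Normal replicate 3 the log2 change was 0.41, which was not called.

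Edn2, which encodes endothelin-2 (ENSMUSG00000028635.7, chromosome 4, 120161206 to 120167360), had 8, 15 and 9 reads in Normal and 22, 25 and 16 in PVR. In normalised counts this was 8.25, 13.9 and 8.16 against 22.7, 28.5 and 15.1. All 3 PVR libraries were above all 3 Normal libraries, but PVR replicate 3 was only 1.09 times Normal replicate 2. The means were 10.1 ± 3.29 and 22.1 ± 6.70 (SD, n = 3). The log2 change of 1.05 (SE 0.44) was called neither in the reported fit nor by any alternative that tested the gene.

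Edn1, which encodes endothelin-1 (ENSMUSG00000021367.8, chromosome 13, 42301476 to 42307990), had 8, 31 and 3 reads in Normal and 18, 29 and 14 in PVR. The exact 95% Poisson interval of the 31 reads in Normal replicate 2 was 21.1 to 44.0 reads, clear of those for Normal replicate 1 (3.45 to 15.8) and Normal replicate 3 (0.619 to 8.77), so the Normal libraries differed by more than counting error. These intervals take in counting error alone, because PCR copies of a molecule were not marked. Replicate 2 was the highest and replicate 3 the lowest in both groups, and the groups overlapped. Within replicate numbers the PVR to Normal ratio was 2.25, 1.15 and 4.86, above 1 in 3 of 3 pairs. The means were 13.2 ± 13.7 and 21.6 ± 10.3 (SD, n = 3), with a log2 change of 1.07 (SE 0.73) that was not called, nor was it with the replicate number as a block (SE 0.49). It was 0.35 without Normal replicate 3 and 1.85 without Normal replicate 2, both not called, and 2.14 and called without Normal replicate 2 and PVR replicate 3 together. By edgeR the log2 change was 0.68, by DESeq2 0.70 and by limma-voom 1.12, each not called. Of its exon bases 35 of 2139 are shared with Gm47118 on the opposite strand, which had 3 reads in all libraries together.

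The receptor genes had the largest differences of the family. Ednrb (ENSMUSG00000022122.15, chromosome 14, 103814625 to 103844402) had normalised counts of 25.8, 27.8 and 19.0 in Normal and 302, 338 and 192 in PVR, from 21 to 30 and 203 to 297 reads. The lowest PVR library was 6.90 times the highest Normal library. The means were 24.2 ± 4.58 and 277 ± 76.3 (SD, n = 3), which is 11.5-fold, with a log2 change of 3.44 (SE 0.28). Replicate by replicate the ratio was 11.7, 12.2 and 10.1. Of all genes tested 2.68% had a larger rise.

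Ednra (ENSMUSG00000031616.7, chromosome 8, 77663031 to 77724464) had normalised counts of 26.8, 35.2 and 22.7 in Normal and 98.9, 107 and 111 in PVR. The PVR libraries were alike, with a coefficient of variation of 6.04%, and the lowest of them was 2.81 times the highest Normal library. The means were 28.2 ± 6.39 and 106 ± 6.39 (SD, n = 3), which is 3.75-fold, with a log2 change of 1.89 (SE 0.27). PVR replicate 3 was the highest library for Ednra and the lowest PVR library for Ednrb. Both receptor genes were called in the reported fit and in all 18 alternative fits. Of the Ednra exon bases 91 of 5476 are shared with 4933431K23Rik on the opposite strand, which had 12 reads in all libraries.

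The balance of the receptors also differed between the groups. Of the reads on either receptor gene, Ednrb held 49.0% in Normal replicate 1 (95% exact Clopper-Pearson interval 34.8 to 63.4), 44.1% in Normal replicate 2 (32.1 to 56.7) and 45.7% in Normal replicate 3 (30.9 to 61.0). In PVR replicates 1 to 3 it held 75.3% (70.7 to 79.5), 76.0% (71.4 to 80.1) and 63.2% (57.7 to 68.5). PVR replicates 1 and 2 were alike, and PVR replicate 3 lay between them and the Normal libraries, with an interval that overlapped those of Normal replicates 1 and 3. These intervals, too, cover only the error of counting reads, not the spread between libraries. Scaled to annotated exon length, the Ednrb share was 52.5% ± 2.51 in Normal and 76.2% ± 6.42 in PVR (SD, n = 3). With the longest transcript as the length it was 43.2% and 68.9%, so which receptor led in Normal depended on the length used. The ligand shares overlapped between the groups. Edn3 made up 91.2% ± 3.85 of the length-scaled ligand level in Normal and 89.4% ± 4.64 in PVR. Edn2 made up 5.01% ± 1.69 and 6.32% ± 2.25, and Edn1 3.74% ± 3.33 and 4.29% ± 2.40 (SD, n = 3).

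**Figure D2:**
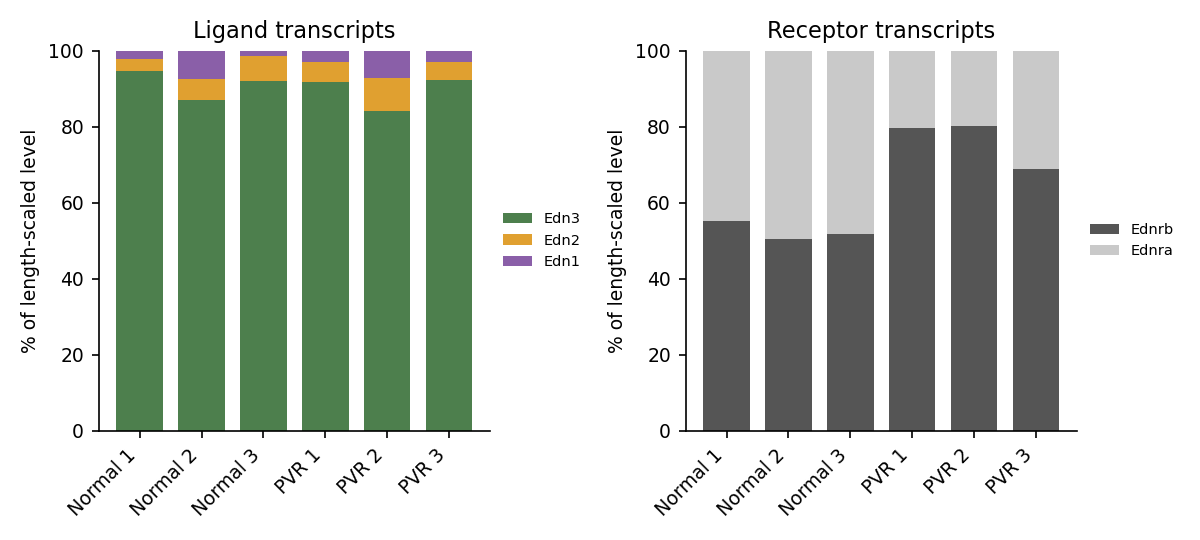
Share of each gene in the length-scaled level (normalised counts per kilobase of annotated exon) of the 3 ligand genes (left) and the 2 receptor genes (right), in percent, with 1 bar per library. Edn3 held 84.0% to 94.7% of the ligand level in every library, and Ednrb held 50.3% to 55.2% of the receptor level in Normal and 68.8% to 80.2% in PVR.

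The promoters of both receptor genes and of Edn3 are shown because these genes had the largest differences and the highest ligand level. Each sequence is the 250 bases before the RefSeq start on GRCm38.p6, read 5′ to 3′ on the gene's strand, with CpG dinucleotides in capitals.
Ednrb: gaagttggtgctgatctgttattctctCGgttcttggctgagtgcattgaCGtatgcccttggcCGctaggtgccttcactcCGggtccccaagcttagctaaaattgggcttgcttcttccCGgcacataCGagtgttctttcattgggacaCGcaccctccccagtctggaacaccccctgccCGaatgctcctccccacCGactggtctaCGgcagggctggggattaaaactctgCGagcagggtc
Ednra: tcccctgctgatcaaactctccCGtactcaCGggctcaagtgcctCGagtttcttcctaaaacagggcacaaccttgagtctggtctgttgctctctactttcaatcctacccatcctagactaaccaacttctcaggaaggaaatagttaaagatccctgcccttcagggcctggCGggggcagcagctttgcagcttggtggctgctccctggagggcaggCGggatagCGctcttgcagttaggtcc
Edn3: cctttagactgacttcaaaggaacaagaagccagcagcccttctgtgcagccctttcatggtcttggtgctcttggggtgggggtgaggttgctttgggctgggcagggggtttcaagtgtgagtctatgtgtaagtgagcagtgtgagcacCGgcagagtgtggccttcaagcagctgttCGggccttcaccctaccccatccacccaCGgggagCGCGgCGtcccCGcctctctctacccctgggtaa
They are chr14:103843702-103843951 (minus strand), chr8:77724453-77724702 (minus strand) and chr2:174760369-174760618 (plus strand). The Ednrb window lies inside the gene as GENCODE M21 draws it, in 0 exon bases, and the Ednra window takes in 12 exon bases. Their G and C content was 56.8%, 54.8% and 59.2%, with 11, 6 and 7 CpG, against medians of 52.4% and 6 over 32851 such windows. A motif search covered both strands. The AP-1 motif TGANTCA occurs in 6.75% of all windows. The core of the NFAT motif, GGAAAA, occurs in 20.4%, and the hypoxia response core ACGTG in 16.6%. For the GATA motif AGATAA the share is 9.99%, and for the Smad box CAGACA it is 17.1%. None of the 5 occurs in the windows of Edn1, Edn2, Edn3, Ednra or Ednrb. ACGTG occurs in 1 of the 4 Ece1 windows, where both strands match in overlap, and in the Ece2 window.

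Of the converting enzymes, Ece1 (ENSMUSG00000057530.14, chromosome 4, 137862237 to 137965229) carried nearly all the reads. Its normalised counts were 326, 437 and 217 in Normal and 961, 581 and 655 in PVR. The groups did not overlap, and the lowest PVR library was 1.33 times the highest Normal library. The means were 326 ± 110.3 and 732 ± 201 (SD, n = 3), which is 2.24-fold, with a log2 change of 1.19 (SE 0.29). The call was lost without Normal replicate 1 (log2 change 1.21), without PVR replicate 3 (1.25) and with replicates 1 and 2 only (0.98). Within replicate numbers the ratio was 2.95, 1.33 and 3.02, so replicate 2 showed the smallest difference.

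Ece2 (ENSMUSG00000022842.18, chromosome 16, 20629828 to 20646485), the second converting enzyme, was close to absent. No Normal library held a read of it (0 in each), and PVR replicates 1 to 3 held 0, 1 and 2. A count of 0 allows up to 3 reads, or 2.72 to 3.42 normalised counts at these depths, and every library lay below that level, so no difference was detectable. Of its 5110 exon bases 57.5% are shared on the same strand with Gm49333, a gene not analysed here, so reads in the shared part may not have been assigned to Ece2.

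**Figure D3:**
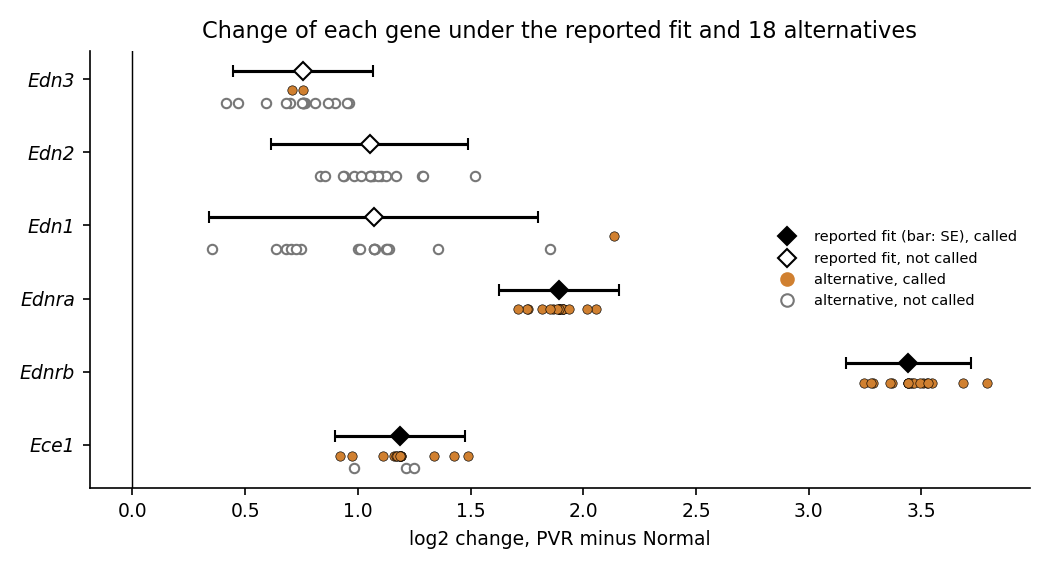
log2 change (PVR minus Normal) of each gene in the reported limma fit (diamond, bar showing the SE, filled when called) and in 18 alternative fits (circles, orange when called, white when not), which were 17 for Edn2 because a filter at 1 CPM dropped it. Every value lies above 0, and Ednrb (3.25 to 3.79) and Ednra (1.71 to 2.06) were called in all of them.

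Levels between genes can be compared only per length. In normalised counts per kilobase of annotated exon, the order in Normal was Edn3 (134 ± 48.1), Ece1 (61.6 ± 20.8), Edn2 (6.91 ± 2.25), Edn1 (6.18 ± 6.40), Ednrb (5.67 ± 1.07), Ednra (5.15 ± 1.17) and Ece2 (0), as mean ± SD over 3 libraries. The ranges of Edn2, Edn1, Ednrb and Ednra overlapped in Normal, as did those of Edn3 and Ece1. By this length, Edn3 was above Ece1 within each Normal library, and Edn2 and Ednrb were each above Ednra. The other pairs among the 4 low genes changed order between libraries. The place of Ednra, here and below, rests on the length used. Its longest transcript has 3625 bases, against 5476 for all its exons. With longest transcripts Ednrb held 43.2% of the receptor level in Normal, so Ednra led. Edn2 has 1462 bases by either length, so its place above Ednra depends on this choice too. In PVR the order was Edn3 (218 ± 45.8), Ece1 (138 ± 38.0), Ednrb (65.0 ± 17.9), Ednra (19.3 ± 1.17), Edn2 (15.1 ± 4.58), Edn1 (10.1 ± 4.79) and Ece2 (0.198 ± 0.186). Ednrb stood apart from its neighbours there, at 44.9 to 79.3 against 18.1 to 20.4 for Ednra and 109.6 to 181 for Ece1. The ranges of Ednra and Edn2 overlapped, as did those of Edn2 and Edn1.

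Within Normal, replicate 3 was the lowest library for 6 of the 6 genes that passed the filter and replicate 2 the highest for 5, all but Edn3. Over all genes tested these positions were held by 34.5% and 29.9%. The summed level of 20 vascular endothelial markers was also lowest in Normal replicate 3 (523) and highest in Normal replicate 2 (1973), with 1590 in Normal replicate 1, and the sum of 10 fibroblast markers was lowest in Normal replicate 3 (3080, against 5267 and 5122). The other marker lists differed in this: of the 9 lists, 4 had their lowest Normal sum in replicate 3 and 5 their highest. Among the 5 were the pericyte and smooth muscle list (5697, 6206 and 6651 in replicates 1 to 3) and the macrophage list (11423, 10683 and 12140). Such sums follow their most abundant genes. Csf1r (9343, 9591 and 11181) made up most of the macrophage sum, and Acta2 (1941, 2373 and 2696) was the most abundant pericyte marker. Less abundant markers could have another order, with Lyz2 at 779, 377 and 251, Cd68 at 292, 105 and 305, and Rgs5 at 722, 698 and 444. The part of these cells in the order of the endothelin genes was not tested. In both groups the sample numbers of replicate 3 also lie apart from those of replicates 1 and 2, which run on. The labels do not say why, and what it stands for cannot be told apart from replicate 3 itself. Within PVR no library held 1 position throughout: replicate 3 was lowest for Edn1, Edn2 and Ednrb, replicate 2 for Edn3 and Ece1, and replicate 1 for Ednra.

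The genes whose 6-library profile lay nearest were found as the smallest root-mean-square distance between centred log2 profiles, over 13420 other named genes. For Ednrb they were Cd1d1 (0.11), Rftn1 (0.11) and Cebpa (0.13), where the median distance over all genes was 1.75. Cebpa, a transcription factor gene, went from 73.3 ± 10.2 to 772 ± 277 normalised counts and Rftn1, the gene of a lipid raft protein, from 41.4 ± 10.2 to 442 ± 155. For Ednra they were Emp2 (0.09), Pla2g2e (0.12) and Steap3 (0.13), and for Ece1 Setbp1 (0.06), Clstn2 (0.09) and Klrg2 (0.12). Those nearest to Edn3 were Hs3st3b1 (0.07), Mybph (0.12) and Matn4 (0.13), and to Edn2 Tshz2 (0.10), Hpcal1 (0.13) and Tmtc4 (0.16). Edn1 had the least close ones, Lrrc17 (0.23), Lmo7 (0.23) and Galnt12 (0.26). These distances describe likeness over 6 libraries that fall into 2 groups.

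The nearest genes on each side with at least 10 reads on average were also listed, a rule chosen after the data were seen. Genes with fewer reads were passed over and several neighbours lay far away, so they cannot show how far a difference extended along the chromosome. Neither neighbour was called for Ednrb (Slain1 at 110 kb and Rnf219 at 633 kb) or Ednra (Tmem184c at 52.3 kb and Rbmxl1 at 781 kb). The same held for Ece1 (Alpl at 65.9 kb and Eif4g3 at 27.8 kb) and Edn1 (Hivep1 at 109 kb and Phactr1 at 373 kb). Both neighbours of Edn2 rose: Hivep3, 23.2 kb away, from 142 ± 11.7 to 306 ± 73.7 (limma adjusted p = 0.00231), and Foxo6, 99.7 kb away, from 31.8 ± 4.76 to 65.0 ± 15.2 (limma adjusted p = 0.0285). Leaving out any of Normal replicates 1 and 2 and PVR replicates 1 and 3 ended the Foxo6 call. Camk2n2, 8.54 kb from Ece2, rose from 10.6 ± 5.51 to 38.6 ± 8.63 (limma adjusted p = 0.0133), a call lost without PVR replicate 1. Of the genes beside Edn3, Prelid3b was not called and Gm14399, a gene model without a name, fell (log2 change -1.18, limma adjusted p = 0.0308), and leaving out any of the same 4 libraries ended that call.

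Most other enzymes that handle endothelin precursors and peptides were not called. Of 7 neprilysin-family peptidases, the family to which Ece1 belongs, 5 were in the tables and 2 passed the filter: Ece1, and Mme, which encodes the endothelin-degrading peptidase neprilysin and was at 161 ± 51.0 in Normal and 99.8 ± 10.5 in PVR (log2 change -0.63, not called). Without Normal replicate 1, 1 peptidase was called lower and 0 higher, and without PVR replicate 3, 0 were called higher. Of 7 proprotein convertases 5 were tested, and by limma 0 rose and 1 fell (1 and 2 at an unadjusted p under 0.05). Higher calls numbered 0 by edgeR, 1 by DESeq2, 1 by limma-voom, 1 with the replicate number as a block and 1 without Normal replicate 2, and 2 fell under the block or without PVR replicate 1. The 1 that fell in the reported fit was Pcsk5, from 274 ± 57.5 to 176 ± 12.8 (log2 change -0.62, limma adjusted p = 0.0252). Pcsk5 was not called when Normal replicate 1, Normal replicate 3 or PVR replicate 2 was left out. Furin, the best known of them, was the most abundant at 2856 ± 471 and 3431 ± 504 and was not called.

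Downstream of the receptors, 15 of 30 tested genes of the G protein, phospholipase C and calcium relay rose and 4 fell, with a median log2 change of 0.45 against -0.02 over all genes. To set beside this and every list below, 17.9% of all genes tested were called higher and 12.9% lower. The lists were chosen with earlier results known, so nothing is read from their counts. Prkce, which encodes protein kinase C epsilon, rose from 122 ± 19.3 to 686 ± 63.5 (limma adjusted p = 1.98e-05), and Rgs2, which encodes a regulator that shortens Gq signals, from 49.8 to 72.1 in Normal to 375 to 814 in PVR (limma adjusted p = 0.00014). Plcb2, the phospholipase C beta of blood cells, rose from 4.21 ± 2.22 to 95.7 ± 39.9. The 4 that fell were Itpr1, the gene of an inositol trisphosphate receptor (9426 ± 839 to 4801 ± 643, limma adjusted p = 0.000464), the inhibitory G protein gene Gnai1 (676 ± 102 to 309 ± 69.7), the arrestin gene Arrb1 (607 ± 71.8 to 433 ± 22.2, a call lost without Normal replicate 2) and Plcb4, chosen after its values were seen (595 ± 55.8 to 457 ± 20.5). Gnaq, which encodes the G protein alpha subunit that both receptors use, was at 1376 ± 20.9 and 1376 ± 100.2 and was not called.

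Of 26 tested regulators of endothelin-1 transcription 9 rose and 3 fell, with a median log2 change of 0.64. Tgfb1 (log2 change 3.24) and Tgfb3 (1.41), ligand genes of a pathway known to induce Edn1, and the hypoxia factor gene Hif1a (3913 ± 534 to 5924 ± 353, limma adjusted p = 0.00463) rose. Yap1 (4410 ± 122 to 2931 ± 297), the second hypoxia factor gene Epas1 (21166 ± 3430 to 13614 ± 366) and Vezf1 (1906 ± 44.4 to 1463 ± 40.3) fell. Without Normal replicate 2, 5 fell. Of the 7 AP-1 genes in the list, named after their values were seen, Fosl1 rose, with 3.09 to 19.4 in the Normal libraries and 43.4 to 250.2 in the PVR libraries (limma adjusted p = 0.0316, log2 change 3.04). Fosl1 was not called with the replicate number as a block (limma adjusted p = 0.106), nor when any of Normal replicates 1 and 3 and PVR replicates 1 and 2 was left out. Fosl2 (log2 change 1.19), Fos, Fosb, Jun, Junb and Jund were not called, and Normal SDs were large, as in Fos (31615 ± 17834 against 22331 ± 1646).

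Among 20 tested genes known to respond to endothelin in other cells 14 rose and 1 fell, with a median log2 change of 1.76. Those with the smallest p were Ccn2 (log2 change 1.56), the collagen genes Col1a1 (3.25) and Col1a2 (903 ± 213 to 6372 ± 1478, limma adjusted p = 0.000154) and the protease gene Mmp9 (3.93), and Vegfa was the 1 that fell (-1.14). Without Normal replicate 2, 5 fell. Col1a1 and Col1a2 are also among the 9 of 10 fibroblast markers that rose, and the part of such cells in this list was not tested.

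In the retinal injury response known to accompany Edn2, 10 of 16 tested genes rose and 1 fell, with a median log2 change of 1.29. Osmr, a receptor subunit gene for cytokines of the LIF family, rose from 4822 ± 383 to 31261 ± 8693 (limma adjusted p = 7.18e-05), the kinase gene Jak3 from 61.0 ± 25.3 to 651 ± 139 (limma adjusted p = 0.00036), and Serpina3n by a log2 change of 10.09. Bdnf, a neurotrophin gene, fell from 455 ± 52.6 to 190 ± 33.8 (limma adjusted p = 0.00059). Gfap, the intermediate filament gene of reactive glia, was at 18.3 ± 4.60 in Normal and 50.9 ± 56.7 in PVR, with PVR replicate 1 alone high at 116, and was not called.

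Other vasoactive peptide and nitric oxide systems served as a comparison, with 5 of 17 tested genes higher, 2 lower and a median log2 change of 0.43. Adm, which encodes the vasodilator adrenomedullin, rose from 17.6 ± 5.03 to 177 ± 67.6 (limma adjusted p = 0.000203), Ramp1, which encodes a partner of the calcitonin receptor-like receptor, from 1.54 ± 2.67 to 29.7 ± 7.17, and the angiotensinogen gene Agt from 34.2 ± 9.79 to 116 ± 18.1 (limma adjusted p = 0.00138). Npr1, the natriuretic peptide receptor gene, fell from 4101 ± 146 to 923 ± 406 (limma adjusted p = 0.00162) and Gucy1a1, a subunit gene of the nitric oxide receptor, from 708 ± 144 to 499 ± 59.0 (limma adjusted p = 0.046). Gucy1a1 was not called by edgeR, nor when any of Normal replicates 2 and 3 and PVR replicates 1 and 2 was left out. Without PVR replicate 1 or without PVR replicate 2, 3 genes of the list rose, and 1 gene fell when any of the 4 libraries just named for Gucy1a1 was left out.

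**Figure D4:**
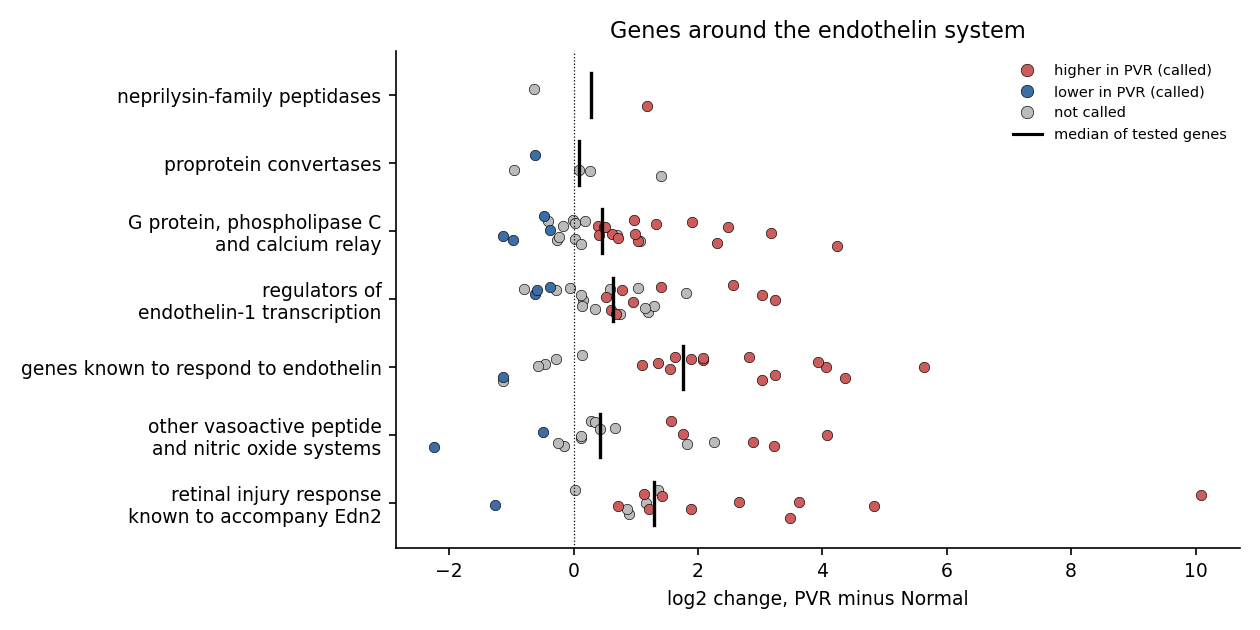
log2 change (PVR minus Normal) of each tested gene in 7 lists around the endothelin system, with 1 point per gene (red called higher, blue called lower, grey not called, vertical jitter only for legibility) and a black bar at the list median. The genes known to respond to endothelin (median 1.76) and the retinal injury genes (1.29) lie further right than the other lists, which have medians of 0.09 to 0.64.

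Among markers of other cells, most of those of macrophages and fibroblasts rose in PVR, while those of pericytes and smooth muscle were mixed. In bulk RNA, more cells of a type and more RNA per cell cannot be told apart. Of 16 macrophage and microglia markers 15 rose and 1, Csf1r, fell, which was not called when Normal replicate 3, PVR replicate 1 or PVR replicate 2 was left out. The list summed to 10683 to 12140 in Normal, most of it Csf1r (10038 ± 998), and to 62845, 86062 and 35475 in PVR replicates 1 to 3. Of 10 fibroblast markers, cells that can carry Ednra, 9 rose and 0 fell by limma (0 fell also at an unadjusted p under 0.05 and by edgeR and DESeq2), with sums of 3080 to 5267 in Normal and 24312, 26775 and 17405 in PVR replicates 1 to 3. The PVR sums of the macrophage and the fibroblast list both had the order of libraries that Ednrb had, and PVR replicate 3, lowest in both, was the highest library for Ednra. Edn1 and Edn2 had the order of Ednrb too. Over all genes tested, PVR replicate 2 was the highest PVR library for 35% and PVR replicate 3 the lowest for 34.7%. By its read counts over genes, PVR replicate 3 was also the PVR library least unlike the Normal libraries. Nothing is read from the shared order. Of 12 pericyte and smooth muscle markers 4 rose and 1 fell (sums 5697 to 6651 and 8518 to 9550), while their defining gene Myh11 was at 9.28 to 106.5 and 16.5 to 76.5. The part of these cells in the receptor values was not tested.

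Endothelial, glial, photoreceptor and melanocyte markers had mixed or no calls. Of 19 tested vascular endothelial markers, cells that make Edn1 and Ece1, 0 rose and 0 fell by limma (3 and 0 at an unadjusted p under 0.05, 0 and 0 by edgeR and limma-voom, 1 and 0 by DESeq2), with sums of 523 to 1973 in Normal and 1590 to 2402 in PVR. The most abundant, Vwf, Flt1 and Eng, were not called (log2 changes 1.28, 0.83 and 1.13), although Vwf was called higher without Normal replicate 1 and Eng without Normal replicate 2. Of 7 Müller glia and astrocyte markers 2 rose and 1 fell, but Glul, Clu and Car14, which made up most of their sum (166792 to 201438 and 225998 to 242315), are also expressed by RPE cells. Rod markers summed to 4039 to 5154 and 2487 to 3476 (0 of 10 rose and 1 fell by limma, 1 and 2 at an unadjusted p under 0.05, 0 and 1 by edgeR and DESeq2), although the median log2 change over the rod markers was 0.88. Cone markers summed to 783 to 859 and 573 to 682 (1 of 5 rose, 1 fell). Of 8 melanocyte and Schwann markers 3 rose and 2 fell, and Sox10, which marks these neural crest lineages, was at 4556 ± 261 in Normal and 3391 ± 337 in PVR (a fall that was lost without Normal replicate 2 or PVR replicate 2), while Pax3 had at most 1.89 normalised counts in any library. Their part in the endothelin values was not tested.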

How the data were processed

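The deposited values are a signal per gene, which the authors made by dividing read counts by a size factor. The submitters' processing notes name DESeq2 and mm10. The aligner, counter, annotation and strand setting: not given in the sources used here. In each library 100% of values were whole multiples of 1 read within 0.001, so reads were recovered. The genes and lists were chosen with earlier results of these data known.

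Genes passing edgeR's filterByExpr (minimum count 10) were fitted with limma 3.58.1 in R 4.3.3 on log2(value + 1), 3 Normal against 3 PVR libraries, and p-values were adjusted by Benjamini-Hochberg over all of them. This pseudocount shrinks the log2 changes of low genes, as in Edn1 (1.14 with a pseudocount of 0.5, 1.07 as reported and 0.75 with 5). Count models need not give larger changes, since edgeR gave 0.68 and DESeq2 0.70 for Edn1. Alternatives were edgeR 4.0.16, DESeq2 1.42.0 and limma-voom on recovered reads, other filters, scalings and pseudocounts, a replicate block and leaving libraries out. The fits were also run on simulated data with few changed genes and no pairing of libraries, unlike these data, so that run does not vouch for the calls here. Same-numbered libraries deviated together over genes (correlations 0.206, 0.195 and 0.179), so the replicate block and the ratios within replicate numbers take the numbers to pair them. The reported fit has no block, so its SEs, p-values and calls leave this pairing out. In each pathway list the genes named are up to 4 called with the smallest p and up to 3 in the less frequent direction, in each marker list up to 3 of the most abundant (1 of them is not reported here), and for each endothelin gene the 3 nearest profiles. Mme, Furin, Gnaq, Gfap, Myh11, Pax3, Sox10, Cdh19, Kit and the chromosomal neighbours were named after their values were seen. Exon lengths and positions are from GENCODE M21 (GRCm38).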

Additional observations from a re-analysis of the deposited data

How the results depend on the processing

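Ednrb and Ednra were called higher in all 18 alternative fits, and 2 to 4 endothelin genes were called higher and 0 lower in any of them. With the replicate numbers as a block (pairing), the log2 change of Edn3 (0.76) was called. Under the block 1 proprotein convertase was called higher and 2 lower, and 2 genes known to respond to endothelin were called lower. The block changed the call of no other endothelin gene. Leaving out 1 library gave 2193 to 2844 genes higher and 1307 to 2026 lower, the 1307 without Normal replicate 1. It gave 0 to 1 neprilysin-family peptidases higher and 0 to 1 lower, 0 to 1 convertases higher and 0 to 2 lower, 3 to 5 regulators lower, 1 to 5 responsive genes lower, and 3 to 7 vasoactive genes higher and 1 to 3 lower. With replicates 1 and 2 only, 0 peptidases were higher, 0 convertases lower and 1 vasoactive gene lower. Convertases higher numbered 1 by DESeq2, limma-voom and without Normal replicate 2 and PVR replicate 3, and 2 were lower when scaled to library totals. Responsive genes lower numbered 2 by edgeR, DESeq2 and limma-voom and 4 without Normal replicate 2 and PVR replicate 3, where 1 vasoactive gene was lower, as by edgeR and limma-voom. Leaving out 1 library, the log2 change of the rod marker Gnat1 ran from -0.0055 (without Normal replicate 1, reversed) to 2.44, and that of the cone marker Gnat2 from -0.072 to 0.082, with 0.016 without Normal replicate 2 and 0.082 without PVR replicate 1, both reversed. With the longest transcript, the Ednrb share of receptors was 43.2% in Normal and 68.9% in PVR. Without length scaling it was 46.3% in Normal, the Edn2 share of ligands was 1.88% and 2.41%, and the Edn3 share 96.0% and 95.2%. Where no construction shows it, the cause was not tested. Reads limit Edn1 (3 to 31 per library), Edn2 (8 to 25) and Ece2 (0 to 2).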
